A study of Homo sapiens with 6 samples.

Results

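Mitochondrial ribosomal protein genes were picked by symbol alone. A row of the count table was taken when its symbol was MRPL or MRPS with a number and an optional A, B or C, or was DAP3, and pseudogenes were left out. This gave 78 of the 18544 genes in the table, 48 named for the large subunit and 30 for the small subunit. They carry 77 symbols, because MRPL46 stands on 2 rows (ENSG00000259494 and ENSG00000173867) whose gene models overlap. The rule reads symbols and no measured value, though it was proposed with earlier results of these data known, and all 78 passed the filter on low counts.

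The mitochondrial ribosome, or mitoribosome, is the particle inside mitochondria that translates the few proteins still encoded by mitochondrial DNA, all of them subunits of the respiratory chain and ATP synthase. Its proteins are encoded in the nucleus, made in the cytosol and imported, and they assemble on ribosomal RNAs that are transcribed from mitochondrial DNA. The large subunit joins amino acids and holds the exit tunnel for the new chain. The small subunit reads the messenger RNA. Some of the proteins have counterparts in the bacterial ribosome and others are specific to mitochondria.

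The libraries came from HMEC-1, an immortalised line of human dermal microvascular endothelial cells, kept in MCDB131 medium at 5.5 mM glucose. Every culture carried a lentiviral shRNA construct, in 3 of them (Set7KD) one against SETD7, which encodes the lysine methyltransferase Set7, and in the other 3 (NTC) a non-targeting one. The series calls the libraries biological triplicates. Neither the hairpin sequence nor whether replicates were transduced separately is stated in the labels. The p-values therefore reflect how far these particular libraries spread. The question the comparison addresses is which transcripts differ after knockdown of SETD7.

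SETD7 stood at 180.5, 178 and 176 CPM (counts scaled to a common library size) in NTC and at 27.8, 43.8 and 26.7 CPM in Set7KD, so the groups did not overlap. Its log2 fold change was -2.44 (SE 0.21, edgeR adjusted p = 0.000927). By an exact two-sided permutation test of its CPM, p was 0.1, which with 3 against 3 is also the lowest p obtainable. Depth was 16385878 to 16953331 gene counts per library, at which 1 count is worth 0.0585 to 0.0618 CPM. Of 7 endothelial markers tested, 2 rose (TEK and KDR) and 2 fell (CDH5 and TIE1), with summed levels of 441 to 563 CPM in NTC and 347 to 385 CPM in Set7KD. PECAM1 and CLDN5 were not analysed here. Of the fibroblast markers 4 of 5 rose, and the sum went from 1445 to 1989 CPM to 3113 to 4053 CPM. Most of it was COL1A1 (means of 1555 and 2861 CPM) and COL1A2 (149 and 733 CPM). Of 6 smooth muscle and pericyte markers 2 rose, and the sum of all 6 went from 182 to 223 CPM to 533 to 755 CPM. The 2 were TAGLN (means of 96.3 and 551 CPM) and CNN1 (0.979 and 9.16 CPM). ACTA2, PDGFRB, MYH11 and RGS5 were not called. Both tested leukocyte markers (CD68 and CD14) fell (1 of them without NTC replicate 1 or Set7KD replicate 3), from 36.1 to 38.7 CPM to 21.5 to 28.2 CPM, and the summed epithelial markers KRT8 and KRT18 were at 219 to 262 CPM in NTC and 227 to 248 CPM in Set7KD. CDH1, EPCAM, CD3E, PTPRC and DCN were not tested. In bulk RNA, fewer cells of a type and less RNA per cell cannot be told apart, and the part of these markers in the results below was not tested.

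After the knockdown, transcripts for mitoribosomal proteins were more often higher than lower. Genes with an edgeR adjusted p under 0.05 were called. Of the 78 rows, 28 rose (35.9%) and 4 fell (5.13%), and 46 were not called. Over all 18482 genes tested, 17.6% rose and 18.6% fell. Among the 11151 genes whose mean reached 10 CPM, a level that every one of the 78 reached, 23.6% rose and 21.5% fell. The median log2 fold change of the 78 rows was 0.11, against -0.01 over all genes tested, and 54 of the 78 had a positive value, against 48.9% of all genes.

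Changes were small. Among the 28 that rose, log2 fold changes ran from 0.17 to 0.57, and their median was a rise of 22.2%. The 4 that fell had log2 fold changes between -0.84 and -0.21. The CPM ranges of the groups did not overlap for 40 rows, with Set7KD above NTC for 33 and below it for 7. Over all genes tested these shares were 23.3% above and 24.1% below.

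By subunit, 17 of 48 large subunit rows rose (35.4%) and 2 fell, with a median log2 fold change of 0.09. Of the 30 small subunit rows 11 rose (36.7%) and 2 fell, with a median of 0.13. Positive values were found for 30 of the large and 24 of the small subunit rows. A difference between the subunits was not tested. The letter in a symbol does not always give the subunit: in published structures MRPS30 and MRPS18A sit in the large subunit, and MRPS36 is a component of the 2-oxoglutarate dehydrogenase complex. Assigned by structure, 18 of 50 large subunit rows rose and 2 fell, and 10 of 27 small subunit rows rose and 2 fell.

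**Figure D1:**
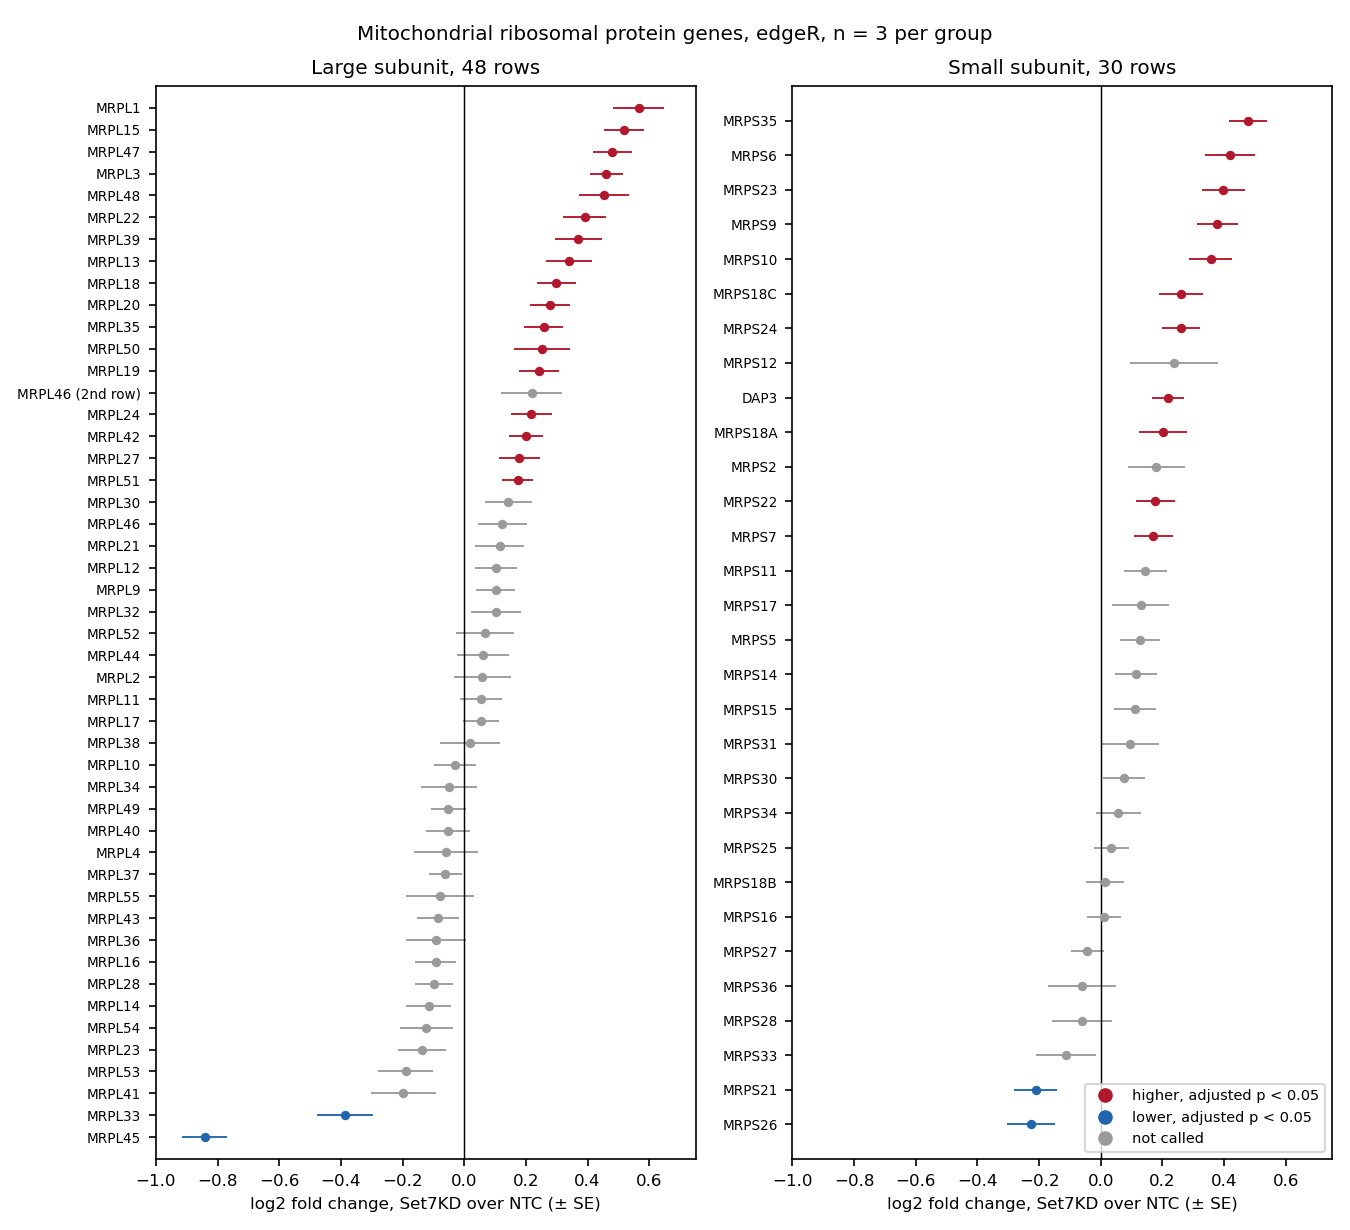
Log2 fold change of each of the 78 rows, Set7KD over NTC (x axis), with its standard error as a bar, large subunit on the left and small subunit on the right. Red points rose and blue points fell at an edgeR adjusted p under 0.05; MRPL45 at -0.84 lies farthest from 0, and MRPL1 at 0.57 is the highest.

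Summed over the 48 large subunit rows, the level was 1915, 1877 and 1944 CPM in NTC replicates 1 to 3 and 2029, 2050.2 and 2071 CPM in Set7KD replicates 1 to 3. All 3 Set7KD libraries were above all 3 NTC libraries, and the means differed by 7.22%. The 30 small subunit rows summed to 1254, 1261 and 1292 CPM in NTC and to 1374, 1391 and 1401 CPM in Set7KD, again without overlap, a difference of 9.46%. The sum of large over small subunit rows was 1.53, 1.49 and 1.51 in NTC and 1.48, 1.47 and 1.48 in Set7KD, so that it was lower in each Set7KD library than in any NTC library. MRPL45 and MRPL33 are part of the large subunit sum, and their means went from 42.4 to 23.6 and from 62.5 to 47.8 CPM (NTC to Set7KD). The ratio without these 2 genes was not computed, so the lower ratio is not to be read as a shift across the large subunit. No test was run on these sums.

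**Figure D2:**
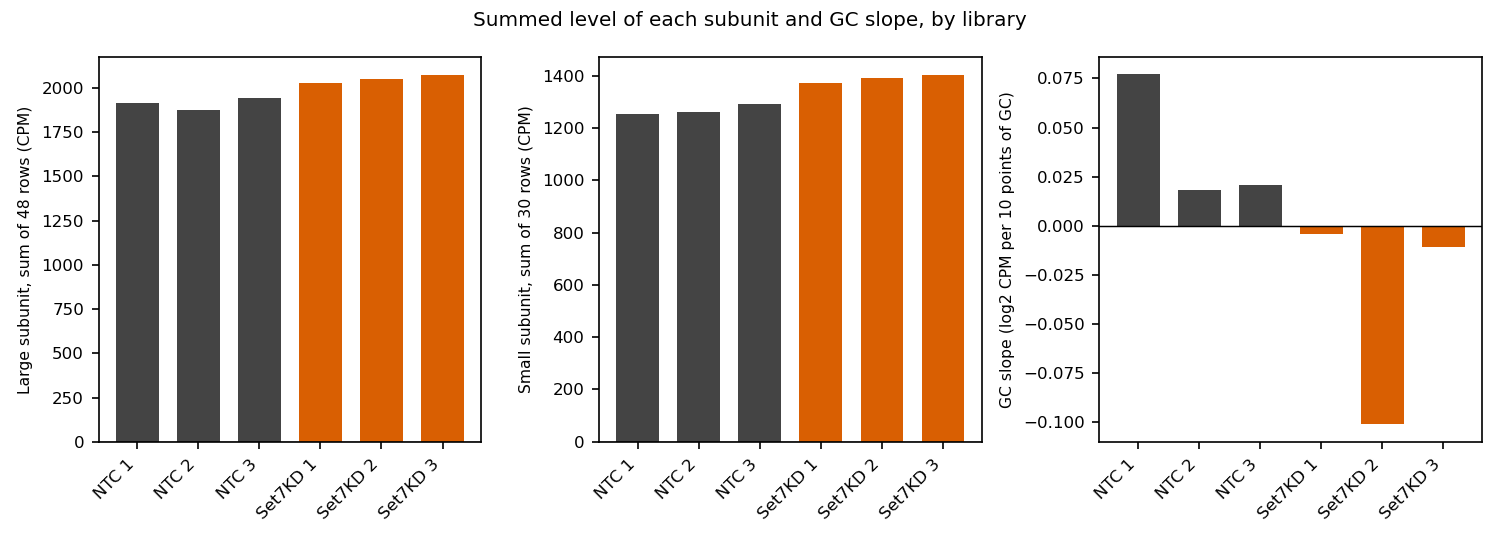
Summed CPM of the 48 large subunit rows (left), of the 30 small subunit rows (middle) and the slope of log2 CPM on transcript GC content (right) in each library, NTC in grey and Set7KD in orange. The 3 Set7KD bars are above the 3 NTC bars in both sums. For the GC slope, log2 CPM was taken relative to the mean of the libraries, so its sign is relative too. It is above 0 in the NTC libraries. In Set7KD it is below 0, with replicate 2 lowest at -0.101 and replicates 1 and 3 at -0.004 and -0.011.

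The large subunit gene with the largest rise was MRPL1 (chromosome 4), whose product forms part of the mobile stalk beside the site where spent tRNA leaves. MRPL1 measured 21.4, 25.4 and 23.1 CPM in NTC replicates 1 to 3 and 33.4, 36.9 and 32.95 CPM in Set7KD replicates 1 to 3. Each Set7KD library was above each NTC library. The log2 fold change was 0.57 (SE 0.08, edgeR adjusted p = 8.87e-05), with per-pair values of 0.65, 0.54 and 0.52 for the libraries of replicate numbers 1, 2 and 3. MRPL15 (chromosome 8) encodes another protein with a bacterial counterpart. In NTC MRPL15 stood at 36.02, 36.7 and 35.5 CPM, and in Set7KD at 49.1, 52.04 and 53.6 CPM. The NTC values lay close together and all Set7KD values were higher, with a log2 fold change of 0.52 (SE 0.07, edgeR adjusted p = 2.14e-05).

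MRPL47 (chromosome 3) is the counterpart of bacterial L29, a protein near the exit of the tunnel. The control libraries had 36.5, 35.5 and 35.5 CPM of MRPL47, and the Set7KD libraries 47.98, 51.2 and 50.8 CPM. The groups were well apart, and the log2 fold change was 0.48 (SE 0.06, edgeR adjusted p = 3.7e-05). MRPL3 (chromosome 3) encodes a core protein that reaches toward the centre where peptide bonds form. Its levels were 69.7, 69.5 and 70.4 CPM in the NTC libraries and 94.9, 99.02 and 94.6 CPM in the Set7KD libraries. It had the highest level of the 6 most increased large subunit genes in reads, and its log2 fold change was 0.46 (SE 0.05, edgeR adjusted p = 1.1e-05).

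MRPL48 (chromosome 11) is specific to mitochondria and sits in the central protuberance of the large subunit. MRPL48 measured 19.3, 19.1 and 19.1 CPM in NTC replicates 1 to 3 and 25.1, 25.4 and 28.2 CPM in Set7KD replicates 1 to 3. Its Set7KD replicate 3 was the highest, every Set7KD value was above every NTC value, and the log2 fold change was 0.45 (SE 0.08, edgeR adjusted p = 0.000508). MRPL22 (chromosome 5) lines the exit tunnel. In NTC MRPL22 stood at 35.3, 37.99 and 41.5 CPM, and in Set7KD at 48.5, 50.3 and 51.6 CPM. Here NTC replicate 3 was the highest control and still below all Set7KD libraries, with a log2 fold change of 0.39 (SE 0.07, edgeR adjusted p = 0.000551).

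The other 11 large subunit genes that rose were MRPL39, MRPL13, MRPL18, MRPL20, MRPL35, MRPL50, MRPL19, MRPL24, MRPL42, MRPL27 and MRPL51, with log2 fold changes from 0.37 down to 0.17. MRPL39, specific to mitochondria, stood at 28.4 ± 0.0981 CPM in NTC and 36.7 ± 3.34 CPM in Set7KD (SD, n = 3). MRPL27, whose bacterial counterpart lies near the peptidyl transferase centre, stood at 40.8 ± 1.19 and 46.2 ± 2.13 CPM. MRPL51, also specific to mitochondria, had the most reads of all 78 rows, with 106, 108 and 106 CPM in NTC and 120.1, 119.8 and 121 CPM in Set7KD. The groups did not overlap for any of these 11.

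Not all large subunit genes went up. MRPL45 (chromosome 17) encodes a protein at the mouth of the exit tunnel that anchors the mitoribosome to the inner membrane. The control libraries had 40.99, 45.1 and 41.1 CPM of MRPL45, and the Set7KD libraries 22.8, 24.9 and 23.3 CPM. The highest Set7KD library was far below the lowest NTC library. The log2 fold change was -0.84 (SE 0.07, edgeR adjusted p = 7.13e-07), a fall of 44.2%, and the per-pair values were -0.85, -0.86 and -0.82. In absolute log2 fold change no other of the 78 rows moved as much.

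MRPL33 (chromosome 2), the counterpart of a small bacterial large subunit protein, also fell. Its levels were 62.4, 61.4 and 63.8 CPM in the NTC libraries and 48.2, 54.95 and 40.3 CPM in the Set7KD libraries. The NTC libraries agreed closely, while Set7KD ranged widely, with replicate 3 lowest and replicate 2 highest. The log2 fold change was -0.39 (SE 0.09, edgeR adjusted p = 0.00495), and the per-pair values were -0.37, -0.16 and -0.66. Beyond these, MRPL37, MRPL16 and MRPL53 were lower in all Set7KD libraries than in all NTC libraries but were not called, with edgeR adjusted p of 0.388, 0.304 and 0.107. MRPL37, second in reads among large subunit rows, stood at 99.5 ± 2.46 CPM in NTC and 95.3 ± 1.59 CPM in Set7KD (SD, n = 3).

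At the low end of the large subunit rows were MRPL36 and the second MRPL46 row. MRPL36 stood at 13.3 ± 0.549 CPM in NTC and 12.5 ± 0.513 CPM in Set7KD (SD, n = 3), while the MRPL46 row stood at 12.9 ± 0.366 and 15.0 ± 1.27 CPM. Neither was called. Both MRPL46 rows were higher in every Set7KD library than in any NTC library, with log2 fold changes of 0.12 and 0.22 (edgeR adjusted p = 0.251 and 0.1). Because their models overlap, reads of one can have been counted for the other, and MRPL46 counts as uncertain.

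In the small subunit, MRPS35 (chromosome 12), a protein specific to mitochondria, rose most. MRPS35 measured 43.3, 44.98 and 45.3 CPM in NTC replicates 1 to 3 and 64.4, 58.7 and 62.9 CPM in Set7KD replicates 1 to 3. Set7KD replicate 2 was the lowest of its group and was above all NTC libraries. The log2 fold change was 0.48 (SE 0.06, edgeR adjusted p = 3.22e-05). MRPS6 (chromosome 21), the counterpart of bacterial S6, followed. In NTC MRPS6 stood at 26.8, 30.4 and 33.2 CPM, and in Set7KD at 38.7, 42.1 and 39.9 CPM. The groups did not overlap although NTC varied, and the log2 fold change was 0.42 (SE 0.08, edgeR adjusted p = 0.000919).

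MRPS23 (chromosome 17), specific to mitochondria, came next. The control libraries had 35.2, 37.9 and 37.6 CPM of MRPS23, and the Set7KD libraries 46.1, 51.9 and 47.96 CPM. Its log2 fold change was 0.40 (SE 0.07, edgeR adjusted p = 0.000355), with no overlap. MRPS9 (chromosome 2), whose bacterial counterpart reaches with its tail to the tRNA in the peptidyl site, behaved similarly. Its levels were 30.99, 32.6 and 33.2 CPM in the NTC libraries and 42.05, 42.8 and 40.9 CPM in the Set7KD libraries. Its log2 fold change was 0.38 (SE 0.07, edgeR adjusted p = 0.000428).

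MRPS10 (chromosome 6) encodes a protein of the head of the small subunit. MRPS10 measured 28.4, 30.6 and 30.2 CPM in NTC replicates 1 to 3 and 36.00, 38.9 and 39.4 CPM in Set7KD replicates 1 to 3. Set7KD replicate 1 was the lowest of its group and still above the controls, and the log2 fold change was 0.36 (SE 0.07, edgeR adjusted p = 0.00115). MRPS18C (chromosome 4) is the member of the MRPS18 family that takes the place of bacterial S18. In NTC MRPS18C stood at 32.8, 29.4 and 31.4 CPM, and in Set7KD at 38.4, 38.1 and 35.6 CPM. The log2 fold change was 0.26 (SE 0.07, edgeR adjusted p = 0.0099), again with separate ranges.

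The MRPS18 family has 3 members in human cells. MRPS18A stood at 21.7 ± 0.303 CPM in NTC and 25.0 ± 0.503 CPM in Set7KD (SD, n = 3) and passed only just, with a log2 fold change of 0.20 and an edgeR adjusted p of 0.04998. MRPS18B stood at 44.6 ± 0.929 and 45.03 ± 0.964 CPM and was not called, with a log2 fold change of 0.02 (SE 0.06). Differences between the 3 were not tested.

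The remaining small subunit genes that rose were MRPS24, DAP3, MRPS22 and MRPS7. DAP3, a GTP-binding protein of the small subunit first described as a mediator of cell death, had 89.7, 91.7 and 88.8 CPM in NTC and 103, 105 and 106 CPM in Set7KD. Its log2 fold change was 0.22 (SE 0.05, edgeR adjusted p = 0.00387). MRPS12, a protein of the decoding centre, and MRPS2 had log2 fold changes of 0.24 and 0.18 and were not called (edgeR adjusted p = 0.218 and 0.143), but were called with the replicate number as a block in the fit (0.0264 and 0.0279), which brought the small subunit count to 13 higher and left 2 lower. Over all genes the block raised the called shares to 20.7% higher and 22.1% lower. MRPS27, a pentatricopeptide repeat protein with the second most reads among the 78 rows, stood at 111 ± 2.81 and 108 ± 1.47 CPM and was not called. MRPS17 and MRPS36 had the fewest reads of the small subunit rows and were not called either, with log2 fold changes of 0.13 and -0.06.

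MRPS26 (chromosome 20) and MRPS21 (chromosome 1) fell. MRPS26 is specific to mitochondria, and MRPS21 is the counterpart of bacterial S21. In NTC MRPS26 stood at 31.4, 31.9 and 30.8 CPM, and in Set7KD at 28.2, 24.2 and 28.1 CPM. In NTC MRPS21 stood at 50.4, 52.9 and 54.7 CPM, and in Set7KD at 44.5, 49.4 and 42.6 CPM. In both, all Set7KD libraries were below all NTC libraries, by narrow gaps for MRPS21. The log2 fold changes were -0.23 (SE 0.08) and -0.21 (SE 0.07), with edgeR adjusted p of 0.0344 and 0.0269. Neither call held with every library left out in turn: MRPS26 lost it on leaving out NTC replicate 1 (0.093) or 2 (0.0839) or Set7KD replicate 2 (0.117), and MRPS21 on leaving out NTC replicate 2 (0.0601) or 3 (0.0817) or Set7KD replicate 1 (0.109) or 3 (0.137).

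**Figure D3:**
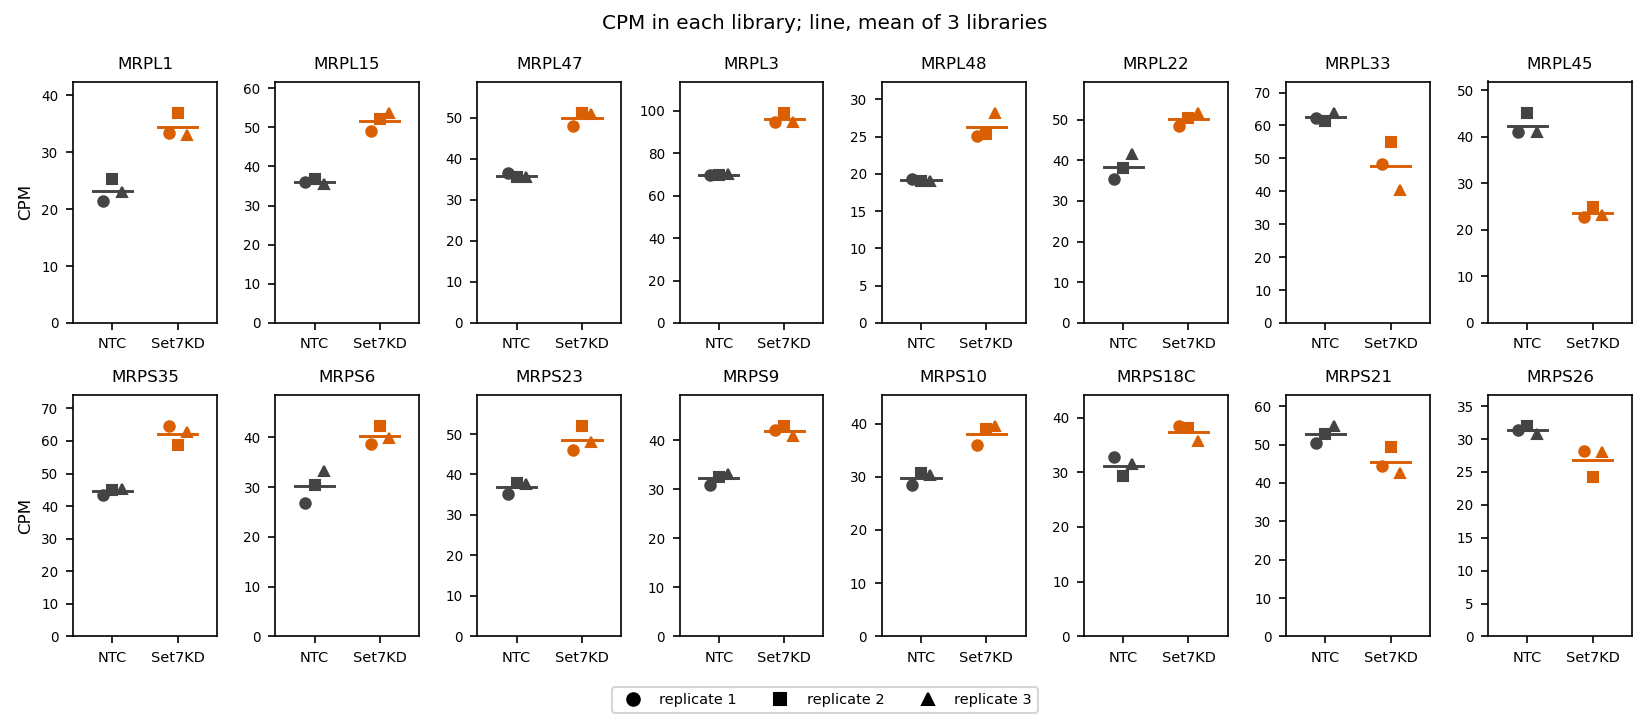
CPM (y axis, from 0) of the 16 members with the largest and smallest called log2 fold changes in each library, NTC in grey and Set7KD in orange, with 1 symbol per replicate number and a line at the mean of 3 libraries. The ranges do not overlap in any panel, and MRPL33, MRPL45, MRPS21 and MRPS26 are the panels in which Set7KD is lower.

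Several smaller rises also hung on single libraries. MRPS18A and MRPS22 lost their calls when any 1 of the 6 libraries was left out, with edgeR adjusted p of up to 0.139 and 0.17. MRPS7 lost it without any library except Set7KD replicate 3 (up to 0.121), and MRPL27 without any except Set7KD replicate 2 (up to 0.135). MRPL50 lost it on leaving out NTC replicate 1 (0.135) or 2 (0.117) or Set7KD replicate 2 (0.116) or 3 (0.0788). MRPL24 lost it without NTC replicate 2 or Set7KD replicate 1 (0.0796 and 0.0898), and MRPL19 and MRPL51 without NTC replicate 1 (0.0549 and 0.0559). The remaining 22 of the 32 calls passed with each single library left out. Without both libraries of replicate number 1, 2 or 3, 16, 25 and 27 of the 32 were kept. MRPL18, MRPL33, MRPL35, MRPL42, MRPS18C and DAP3 were among those lost without number 1.

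By origin, 46 rows belong to proteins with a bacterial counterpart and 31 to proteins specific to mitochondria. Of the former 18 rose and 2 fell, with a median log2 fold change of 0.13, and of the latter 10 rose and 2 fell, with a median of 0.06. Within the large subunit the counts were 12 higher and 1 lower of 30 with a counterpart, and 5 higher and 1 lower of 18 without. Within the small subunit they were 6 and 1 of 16, and 5 and 1 of 13. MRPS18C was classed as having a counterpart, and MRPS18A and MRPS18B, of the same family, as specific to mitochondria. A difference between these classes was not tested.

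Reads per kilobase of transcript allow levels to be set beside each other, with the length taken from 1 annotated transcript of each gene. On this scale the 3 highest levels in NTC were those of MRPL33, MRPL51 and MRPS24, at means of 121, 86.5 and 76.6 CPM per kilobase. In Set7KD the same genes stood at 92.3, 97.5 and 91.7 CPM per kilobase, so MRPL33 came first in NTC and MRPL51 in Set7KD. MRPS33 and MRPL42 were at the low end, at 4.11 and 3.75 CPM per kilobase in NTC and 3.80 and 4.31 in Set7KD. The MRPL42 transcript is annotated at 15582 bases, so its level depends on which transcript is taken. Across the 78 rows the log2 fold change had a Pearson correlation of 0.13 with log2 mean CPM and of 0.18 with log2 transcript length.

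GC content moved with the changes. In genes of at least 10 CPM, log2 CPM relative to the mean of the libraries had a slope on transcript GC of 0.077, 0.018 and 0.021 per 10 points in NTC and of -0.004, -0.101 and -0.011 in Set7KD. Members with less GC had higher log2 fold changes. Pearson's r was -0.39 and Spearman's rho -0.46 over the 78 rows, -0.49 and -0.65 over the 48 large subunit rows, and -0.11 and -0.05 over the 30 small subunit rows, against -0.19 and -0.21 over 11026 genes of at least 10 CPM. All these points come from the same 6 libraries.

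The members were then set against genes of like GC content. The 4 GC bins held equal numbers of genes of at least 10 CPM. In the lowest, of up to 42.3%, 12 of 17 members rose (70.6%), among them MRPL1, MRPL47 and MRPS35. There 24% of all genes rose and 31.4% of those with at least 10 CPM. In the next bins 7 of 19 (36.8%), 7 of 27 (25.9%) and 2 of 15 (13.3%) rose. Of genes of at least 10 CPM, 29.3%, 21.8% and 12.3% rose in these bins. The member share was farthest above that of genes of like GC content in the lowest bin. Each bin held 1 member that fell. Member medians were 0.26, 0.13, 0.07 and -0.05, and those of the genes of at least 10 CPM were 0.08, 0.06, 0.00 and -0.08.

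With a GC correction in the edgeR fit, chosen after seeing the data, 30 members rose and 3 fell. In that fit 18.8% of all genes rose and 18.5% fell. The shares among genes of at least 10 CPM, a level every member reached, are not given for it. Of the 32 calls, 30 remained. MRPL50 and MRPS26 were no longer called (edgeR adjusted p = 0.0683 and 0.273). MRPL12, MRPS2 and MRPS34, all of high GC content, were called higher, at log2 fold changes of 0.24, 0.29 and 0.20 (edgeR adjusted p = 0.00761, 0.0131 and 0.0122). MRPL1 stood at 0.50 and MRPL45 at -0.87. The correlation of the corrected values with GC over the 78 rows was -0.12 (Pearson) and -0.21 (Spearman).

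**Figure D4:**
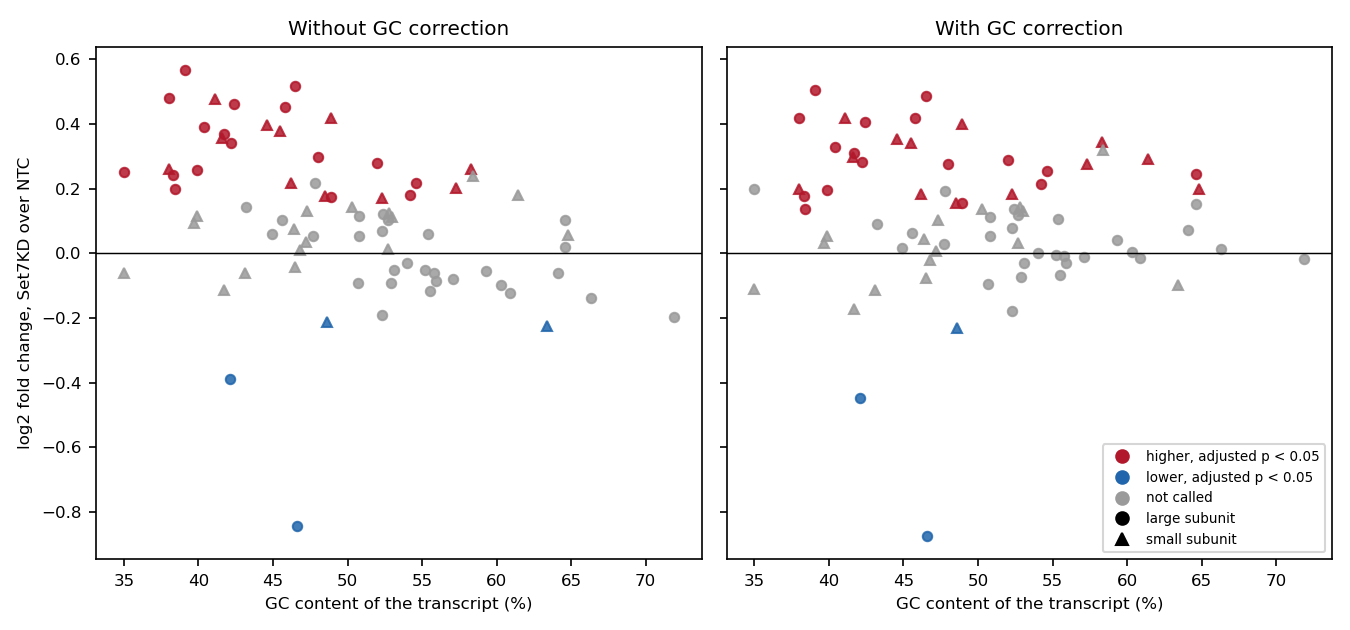
Log2 fold change of each of the 78 rows (y axis) by the GC content of its transcript in percent (x axis), before (left) and after (right) a GC correction, large subunit as circles and small subunit as triangles. Red and blue points are called higher and lower in the fit of that panel: 28 and 4 on the left, 30 and 3 on the right, with most red points at low GC on the left.

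Reads of other genes can fall on members, since no label states whether counting used strand. In GENCODE 29, 38 of the 78 rows share an exon with another row of the table, and of these 13 rose and 1 fell. Of the 40 that share none, 15 rose and 3 fell, with a median log2 fold change of 0.07. MRPL47 overlaps ACTL6A, a chromatin remodelling subunit on the opposite strand, which also rose (0.32, edgeR adjusted p = 0.000283). MRPS22 overlaps COPB2 (0.37, edgeR adjusted p = 4.21e-05) and MRPS18C overlaps ABRAXAS1 (0.28, edgeR adjusted p = 0.0145), both on the opposite strand. The rises of MRPS22 and MRPS18C, at 0.18 and 0.26, cannot be told apart from those of their neighbours. MRPL47 rose by 0.48, more than ACTL6A, and the part of shared reads in it was not tested. MRPL13 and MRPS7 rose while MTBP and GGA3, on the strand opposite to each, fell by 0.24 and 0.21 on the log2 scale (edgeR adjusted p = 0.0447 and 0.0124). MRPS6 shares exon sequence with SLC5A3 on the same strand, which stood at 0.05 (edgeR adjusted p = 0.592), and MRPL33 shares exons with BABAM2, at 0.00 (edgeR adjusted p = 0.98). Neither of these 2 neighbours was called. MRPL1, MRPL3, MRPL45 and MRPS35 share no exon with another row.

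Pseudogenes can also exchange reads with their parent genes. MRPL3P1 had 277, 226 and 255 counts in NTC and 351, 340 and 345 in Set7KD, a log2 fold change of 0.50 (edgeR adjusted p = 0.000529) beside 0.46 for MRPL3. MRPL45P2 had 8 to 15 counts in NTC and 10 to 20 in Set7KD, with a log2 fold change of 0.23 beside -0.84 for MRPL45.

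Promoters are shown for 4 members that rose and the 2 large subunit genes that fell, chosen among the members whose windows hold a searched motif. The windows of MRPL1, MRPS35, MRPS6 and MRPS9, among the largest rises, held none of the 3. In the following sequences the first letters are the far end, the start site lies 50 bases before the end, and capitals mark the words CCGGAAG (bound by ETS factors such as GABPA), AAGATGGC (bound by YY1) and GCATGCGC (bound by NRF1), searched on both strands. CCGGAAG can share its last letters with AAGATGGC. Sequences and coordinates are from RefSeq on GRCh38.p14, a later build than the hg19 of the counts.
MRPL47, chr3:179604589-179604888, minus strand: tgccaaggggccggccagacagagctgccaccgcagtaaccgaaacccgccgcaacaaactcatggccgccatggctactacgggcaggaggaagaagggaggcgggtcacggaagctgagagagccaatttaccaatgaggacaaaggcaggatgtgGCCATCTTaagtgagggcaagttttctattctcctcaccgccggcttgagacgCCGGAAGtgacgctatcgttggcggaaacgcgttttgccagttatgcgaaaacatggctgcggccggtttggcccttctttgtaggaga
MRPL3, chr3:131502922-131503221, minus strand: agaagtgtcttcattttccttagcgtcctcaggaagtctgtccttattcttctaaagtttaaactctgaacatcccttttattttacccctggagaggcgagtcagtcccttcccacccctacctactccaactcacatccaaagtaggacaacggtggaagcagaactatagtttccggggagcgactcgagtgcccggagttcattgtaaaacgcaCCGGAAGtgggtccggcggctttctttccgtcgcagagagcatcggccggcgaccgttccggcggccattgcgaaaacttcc
MRPL22, chr5:154940823-154941122, plus strand: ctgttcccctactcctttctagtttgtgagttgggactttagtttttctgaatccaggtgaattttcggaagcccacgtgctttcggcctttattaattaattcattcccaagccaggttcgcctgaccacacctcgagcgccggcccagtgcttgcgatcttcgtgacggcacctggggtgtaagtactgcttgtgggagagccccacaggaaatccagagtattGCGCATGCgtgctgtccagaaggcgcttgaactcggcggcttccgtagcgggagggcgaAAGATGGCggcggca
MRPS10, chr6:42217812-42218111, minus strand: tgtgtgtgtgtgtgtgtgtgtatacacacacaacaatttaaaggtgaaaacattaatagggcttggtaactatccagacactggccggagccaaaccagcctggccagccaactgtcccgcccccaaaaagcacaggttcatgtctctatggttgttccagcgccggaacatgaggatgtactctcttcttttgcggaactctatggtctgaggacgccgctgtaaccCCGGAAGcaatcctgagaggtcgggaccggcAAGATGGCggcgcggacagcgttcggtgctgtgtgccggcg
MRPL45, chr17:38296918-38297217, plus strand: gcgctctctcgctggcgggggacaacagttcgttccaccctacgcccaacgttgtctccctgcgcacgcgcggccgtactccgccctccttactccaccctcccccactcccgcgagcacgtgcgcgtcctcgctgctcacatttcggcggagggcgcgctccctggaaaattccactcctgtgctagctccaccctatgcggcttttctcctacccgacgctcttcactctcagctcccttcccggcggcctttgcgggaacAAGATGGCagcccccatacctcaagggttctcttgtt
MRPL33, chr2:27771469-27771768, plus strand: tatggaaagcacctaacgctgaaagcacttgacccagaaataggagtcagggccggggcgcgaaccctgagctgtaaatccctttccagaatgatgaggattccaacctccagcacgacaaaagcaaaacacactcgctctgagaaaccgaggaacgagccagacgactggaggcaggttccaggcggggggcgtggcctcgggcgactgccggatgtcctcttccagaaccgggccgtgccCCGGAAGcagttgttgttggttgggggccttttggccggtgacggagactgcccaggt

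RefSeq windows of 300 bases were matched for 68 of the 77 symbols. Where a gene had several start sites, only the first listed was searched. CCGGAAG was found in 28 of the 68 (41.2%), against 18.6% of 9893 genes tested and 10.7% of all 27305 genes with a window. AAGATGGC was found in 20 (29.4%), against 5.32% and 3.03%, and GCATGCGC in 6 (8.82%), against 5.48% and 3.27%. Among members that rose, 11 of 25 held CCGGAAG and 10 of 25 AAGATGGC. Among those that fell it was 3 of 4 and 1 of 4, and among those not called 14 of 39 and 9 of 39. GCATGCGC stood in 2 of 25, 0 of 4 and 4 of 39. The median log2 fold change was 0.08 with CCGGAAG and 0.11 without, and 0.17 with AAGATGGC and 0.10 without. The genes tested were not limited to those of at least 10 CPM, a level every member reached, so these backgrounds are not of like level. A match is a run of letters and not a measured binding site.

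The factors themselves were measured. YY1 fell from 197 ± 1.52 to 150.2 ± 2.59 CPM (SD, n = 3), a log2 fold change of -0.39 (SE 0.05, edgeR adjusted p = 2.3e-05), with all Set7KD libraries below all NTC libraries. GABPA, the DNA-binding subunit of an ETS factor, stood at -0.22 (edgeR adjusted p = 0.061) and NRF1, a regulator of nuclear genes for mitochondria, at -0.02 (edgeR adjusted p = 0.889). YY1 was the one call among 8 regulator genes tested, where 3 had lower values at an unadjusted p under 0.05. With the replicate block, and without NTC replicate 3, 3 of the 8 fell, and 2 fell without Set7KD replicate 2. DESeq2 called 2 lower. With the GC correction 2 were lower and 1 higher, GABPA at -0.28 and PPRC1, a relative of PGC-1, at 0.18 being called as well (edgeR adjusted p = 0.0115 and 0.0299).

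Short words in 3′ UTRs were examined because ATGAATC and TGAATCA had been found earlier, in these same data, to go with lower fold changes across genes. Either word stood in the 3′ UTR of 2046 genes, with a median log2 fold change of -0.08 and 30.7% lower. For 10967 genes without, these were -0.004 and 20.5%. The length and GC content of the 3′ UTRs were not taken into account. Among the members 7 held one. MRPL45 fell, MRPL19, MRPL22 and MRPL42 rose, and MRPL4, MRPS16 and MRPS25 were not called. The longer run ATGAATCA, which holds both words, stood in MRPL45, MRPL19 and MRPS16. The words are shown in the member that fell and in 1 member that was not called, capitals marking the shared run, from GENCODE 29 transcripts.
MRPL45: ctgactcactgATGAATCAgcatttgcatt
MRPS16: gggagttcagtATGAATCAagattgaacca

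Members with a word thus stood among those that rose, fell and were not called. Whether the words relate to the hairpin was not tested.

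Other genes of the pathway were counted by the same rule. Their counts are to be read beside the 17.6% higher and 18.6% lower among all genes tested. Of 6 further mitoribosome proteins, whose symbols lie outside the rule, 2 rose (PTCD3 by 0.19 and GADD45GIP1 by 0.24 on the log2 scale, edgeR adjusted p = 0.0146 and 0.0193) and CHCHD1 fell by 0.23 (edgeR adjusted p = 0.0271). These 3 calls hung on single libraries: PTCD3 lost it without NTC replicate 1 (0.0946), GADD45GIP1 without NTC replicate 1 or 2 or Set7KD replicate 1 or 3 (up to 0.0992), and CHCHD1 without NTC replicate 1 or 3 or Set7KD replicate 1 or 3 (up to 0.136).

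Among 18 assembly factors of the large subunit 4 rose and 1 fell, beside 17.6% and 18.6% of all genes, with a median of 0.02. NGRN, which stabilises the RNA of the large subunit, rose most. The control libraries had 89.1, 89.1 and 83.03 CPM of NGRN, and the Set7KD libraries 140.4, 128 and 137 CPM. The groups were far apart, with a log2 fold change of 0.63 (SE 0.06, edgeR adjusted p = 9.01e-07), larger than that of any of the 78 members that rose. MALSU1, which keeps an unfinished large subunit from joining the small one, rose by 0.23 (edgeR adjusted p = 0.0112), and MTERFD2, which targets a methyltransferase to the large subunit, fell by 0.26 (edgeR adjusted p = 0.0119). MALSU1 lost its call without NTC replicate 1 (0.0617) and MTERFD2 without NTC replicate 2 or Set7KD replicate 1 (0.0522 and 0.0864). Without NTC replicate 1 the count of assembly factors that rose was 1.

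NOA1, a GTPase needed for mitochondrial translation, was the one call among 8 small subunit assembly factors. It fell from 36.3 ± 2.30 to 26.4 ± 0.433 CPM (SD, n = 3), a log2 fold change of -0.46 (SE 0.07, edgeR adjusted p = 0.000196). Of 16 translation factors 3 rose and 2 fell, beside 17.6% and 18.6% of all genes. OXA1L, the insertase that takes up the new chain at the tunnel mouth beside MRPL45, fell. Its levels were 99.3, 99.3 and 94.4 CPM in the NTC libraries and 70.00, 70.5 and 68.3 CPM in the Set7KD libraries. Its groups did not overlap, with a log2 fold change of -0.49 (SE 0.05, edgeR adjusted p = 7.06e-06). GFM2, which splits the ribosome for recycling, fell by 0.45 (edgeR adjusted p = 4.73e-05), and SLIRP, which binds mitochondrial messenger RNA, rose by 0.31 (edgeR adjusted p = 0.00268).

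Of 16 mitochondrial tRNA synthetases 2 rose and 4 fell, beside 17.6% and 18.6% of all genes, with a median of -0.14. At most 1 of the falls was called by DESeq2, without NTC replicate 1 or without Set7KD replicate 1. AARS2 fell by 0.25 (edgeR adjusted p = 0.0167), and CARS2 rose by 0.26 (edgeR adjusted p = 0.0149). Without Set7KD replicate 1 neither of them was called (0.0607 and 0.0684). AARS2 was also lost without NTC replicate 1 (0.0768) and with the GC correction (-0.15, 0.0813), and CARS2 without NTC replicate 1 or Set7KD replicate 3 (0.0722 and 0.0615). Of 5 genes of mitochondrial transcription 2 fell. TFAM, which packages and transcribes mitochondrial DNA, stood at 107, 110.4 and 104 CPM in NTC and at 62.2, 84.1 and 62.4 CPM in Set7KD. All Set7KD libraries were lower, replicate 2 the least, and the log2 fold change was -0.63 (SE 0.11, edgeR adjusted p = 0.00267). POLRMT, the mitochondrial RNA polymerase, fell by 0.32 (edgeR adjusted p = 0.0106), a call that was lost without NTC replicate 1 or Set7KD replicate 1 (0.0575 and 0.059) and with the GC correction (0.136). The mitochondrial ribosomal RNAs were not analysed here.

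Cytosolic ribosomal proteins, which build the ribosome that translates most messenger RNA, were more often lower than higher. Of 85 tested 43 fell and 2 rose, with a median log2 fold change of -0.17, against 4 and 28 of the 78 mitochondrial rows with a median of 0.11. DESeq2 called 38 lower and 0 higher, while 3 had higher values in edgeR at an unadjusted p under 0.05; without both libraries of replicate number 1 the count that fell was 19. At most 1 rise was called when any library but Set7KD replicate 2 was left out. The counterparts RPL3 and MRPL3, both of the core near the peptidyl transferase centre, had log2 fold changes of -0.59 (SE 0.06, edgeR adjusted p = 1.81e-06) and 0.46. RPS14 and RPL19 fell by 0.44 and 0.43 (edgeR adjusted p = 1e-05 and 1.09e-05). Some cytosolic genes that were not called had few reads, among them RPS10, RPL7, RPS28 and RPS27 at NTC means of 3.05, 3.58, 4.02 and 4.49 CPM. Exchange of reads with pseudogenes was not examined for this list. A difference between the lists was not tested.

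**Figure D5:**
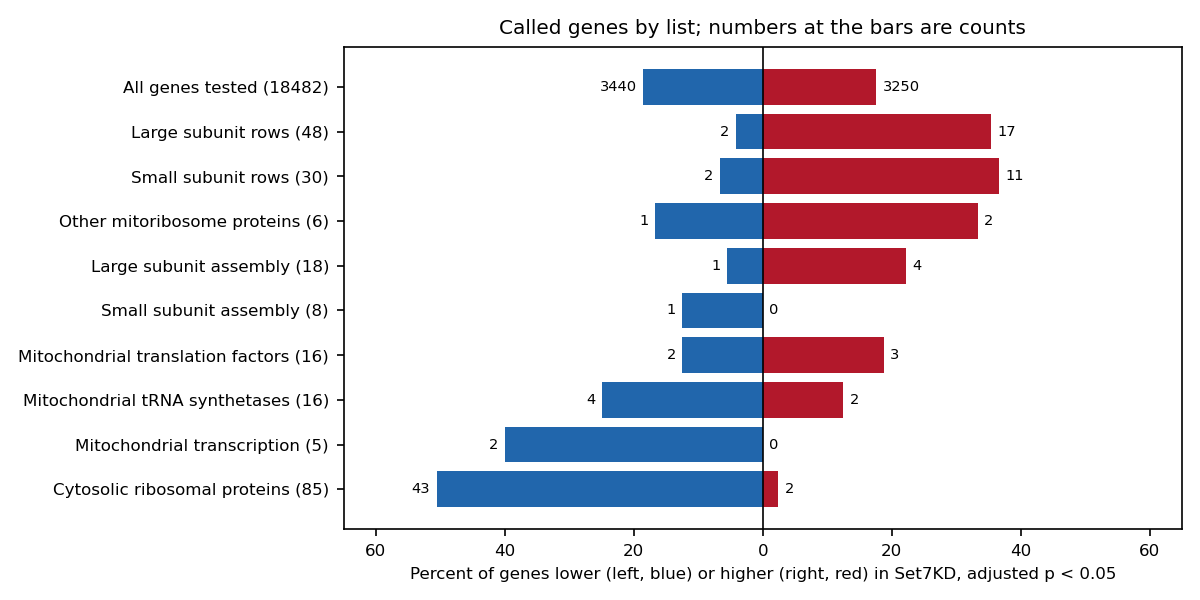
Percent of the tested genes of each list called lower (blue, to the left) and higher (red, to the right) in Set7KD at an edgeR adjusted p under 0.05, with the count at each bar and the number tested in parentheses. Both subunits of the mitoribosome reach farther right than all genes, with 17 and 11 rows, and cytosolic ribosomal proteins reach farther left, with 43.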

How the data were processed

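RNA-seq of HMEC-1 was analysed in 3 Set7KD and 3 NTC libraries, grouped by sample title. Per the labels' protocols, poly-A RNA was selected on magnetic beads and made into libraries with an Illumina mRNA kit; the aligner BWA, bedtools and the build hg19 are named in the submitters' processing notes. The deposited values are raw whole-number counts per gene. Tool versions, counting strand and the handling of reads with several matches are not given in the sources used here. BWA does not splice reads. A final row for reads outside genes held 55.6 to 56.1% of each library and entered neither library sizes nor tests.

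The test was that of edgeR 4.0.16 under R 4.3.3 (TMM after filterByExpr, robust glmQLFit, glmQLFTest, group as the only factor), with Benjamini-Hochberg adjustment over 18482 genes. The script was tested on simulated data. A standard error is the log2 fold change over the square root of F. Replicates were not repeats of 1 library: within groups, chi-square per degree of freedom was 2.95 to 9.77.

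Members and lists were chosen with earlier results of these data known. Named are SETD7 and, per subunit, up to 6 called members from each end of the log2 fold changes. Also named are the 2 with most and the 2 with fewest reads per subunit, and the 3 called genes with the smallest p of each list. Other members were named after their values were seen. So were KDR, TEK, CDH5, TIE1, the fibroblast and smooth muscle markers, cytosolic genes with few reads and overlapping genes. GC content, lengths, exons and 3′ UTRs are from GENCODE 29, matched by identifier for 17753 genes and by symbol for 305. Libraries with the same replicate number deviated together from their group means (r = 0.3, 0.42 and 0.34 over 11151 genes), which the numbers' labels do not explain. The alternatives were other normalizations and filters, the replicate block, DESeq2 1.42.0, voom in limma 3.58.1, a test against a fold of 1.2, a threshold of 0.01, and libraries left out.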

Additional observations from a re-analysis of the deposited data

How the results depend on the processing

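All 32 calls of members were kept with other normalizations, the stricter filter, limma-voom and the replicate block, and 31 without a filter on low counts, where MRPS18A was lost (0.0501). With the replicate block the small subunit had 13 higher and 2 lower and the large 17 and 2, and the block lost no call of a member. DESeq2 kept 25 of the 32 and called 0 small subunit members lower, with 2 lower at an unadjusted p under 0.05 there and 2 called by edgeR. In edgeR at an adjusted p under 0.01 that count was also 0, with 2 at an unadjusted p under 0.05. It was 1 with the GC correction, with or without the replicate block. Against a fold of 1.2 the large subunit had 5 higher and 1 lower, and the small 1 higher and 0 lower by edgeR (0 also at an unadjusted p under 0.05 against that fold); over all genes 903 were higher and 1314 lower. At an adjusted p under 0.01, 2103 genes were higher and 2197 lower. Among members without shared exons 11 large and 4 small subunit members were higher and 1 large subunit member lower, and without the 3′ UTR words 1 large subunit member was lower.

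With 1 library left out, large subunit counts were 13 to 16 higher and 2 lower, small subunit counts 8 to 10 higher and 0 to 1 lower (0 without NTC replicate 2, by edgeR, with 2 at an unadjusted p under 0.05), and all genes 2423 to 3214 higher and 2545 to 3303 lower. With both libraries of 1 number left out they were 9 to 16 and 1 to 2, 6 to 9 and 0 to 1, and 1414 to 3037 and 1562 to 3113; the lowest were without number 1, and small subunit members higher were 6 without number 1 and 7 without number 2. Summed levels were higher by 6.24 to 8.6% (large) and 8.82 to 11% (small). MRPS36 ranged from -0.15 to 0.01 with 1 library left out, positive without Set7KD replicate 1, and was 0.02 without both libraries of number 2; the cause was not tested. MRPS36 and MRPL36 had the fewest reads, at about 12 to 14 CPM.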
